A study of Mus musculus with 4 samples.

Results

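The genes of the DNA replication machinery were compared between mouse Th17 cells labelled PP2A WT and PP2A cKO. The 50 genes were taken by name, and each of them was found once among the 52636 genes of the deposited expression table. They and the other gene lists below were chosen with earlier results of these data known. Their shares set beside those of all genes are therefore descriptions. Th17 cells are helper T cells that secrete interleukin 17, and PP2A is an abundant phosphatase that removes phosphate from serine and threonine. Each genotype had 2 libraries, numbered as replicates 1 and 2, from cells of the C57BL/6 strain. All 4 libraries came from naive cells polarized for 2 days beside irradiated antigen presenting cells from the same source, 3 of them per naive cell. The polarizing mix held 2 µg/ml of each antibody to CD3 and CD28, the cytokines TGFβ1 at 2 ng/ml and IL-6 at 20 ng/ml, and 10 µg/ml of each antibody that neutralizes IL4 or IFNγ. A restimulation of 4 h followed, in PMA at 50 ng/ml with ionomycin at 500 ng/ml. The labels name neither the PP2A subunit that was targeted, nor a Cre driver, nor the ages of the mice. The series concerns the need for PP2A in Th17 differentiation.

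Replication of the genome begins at origins, which are bound by the origin recognition complex. In G1 phase CDC6 and CDT1 load the MCM helicase there, a ring of the MCM2 to MCM7 proteins, and this loading is called licensing. At the start of S phase the kinase CDC7 with DBF4 triggers firing, in which CDC45 and the GINS complex join the ring to form the active helicase. DNA polymerase alpha with primase starts each strand, polymerases delta and epsilon extend them, and the clamp PCNA, placed by the RFC clamp loader, holds the polymerases on DNA. Many of these genes are transcribed by E2F factors as cells enter S phase, so activated T cells, which divide quickly, carry much of their mRNA.

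Expression was given as FPKM, a read number scaled by gene length and library depth, which allows levels to be compared between genes. The values rested on 18517487 to 20387948 gene-assigned reads per library. The design text speaks of biological replicates and does not tell whether they were separate mice or cultures. The p-values therefore measure the spread between these libraries, which may be technical. Because the targeted subunit is not named, no gene could check the genotype labels. The catalytic subunit gene Ppp2ca had 42.2 and 50.1 FPKM in WT and 41.8 and 34.5 in cKO (limma, adjusted p = 0.36), and Ppp2cb, Ppp2r1a and Ppp2r1b did not pass the test either. All 10 T cell and Th17 markers were present, with Cd4 at 104 to 128 FPKM. Their summed level, set mostly by Il17f, was 4915 and 4607 FPKM in WT and 3915 and 3814 in cKO. Of the antigen presenting cells, each of 5 B cell and 6 myeloid and dendritic cell markers stayed under 1 FPKM in every library. Their summed levels were 0.374 to 0.633 and 0.576 to 0.881 FPKM in WT, and 0.547 to 0.755 and 0.237 to 0.503 in cKO. Of 4 CD8 and NK cell markers, Ncr1 and Klrb1c had 0 reads in every library, and the sum was 7.61 to 8.24 FPKM in WT and 9.28 to 10.2 in cKO, nearly all from Cd8b1. The libraries of cKO stood further apart than those of WT, with an SD of the log2 difference across tested genes of 0.304 against 0.209. The difference between the cKO libraries followed transcript GC content across genes (Spearman's rho = -0.529), against 0.121 for WT.

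The promoters of the genes were searched for motifs, which the choice of the genes did not use. RefSeq promoter windows of GRCm38.p6, from 250 bases before to 50 after a transcript start, were at hand for 41 of the 50 genes (50 windows). The E2F motif, searched as TTCCCGC, as TTCGCGC, as TTGCCGC and as TTGGCGC on both strands, was present in 60.0% of these windows and in 9.57% of all 32851 windows. The CCAAT box, searched as CCAAT on both strands, was in 50.0% against 37.4%, and the CHR element, searched as TTTGAA or TTCGAA on both strands, in 20.0% against 19.2%. The member windows were richer in GC, with a median of 62.3% against 52.7%, and the E2F letters are themselves GC-rich. Matches of TTGGCGC and TTCGCGC on opposite strands can overlap. The 150 bases before the start are shown for Mcm2, Mcm3, Mcm5, Mcm6 and Rfc5, which had low p-values in the comparison, and for Pcna and Orc5, whose genotype means were nearly equal. They run 5′ to 3′ on the strand of the gene, and capitals mark the E2F, CCAAT and CHR letters.
Mcm2, chr6:88898781-88898930, minus strand: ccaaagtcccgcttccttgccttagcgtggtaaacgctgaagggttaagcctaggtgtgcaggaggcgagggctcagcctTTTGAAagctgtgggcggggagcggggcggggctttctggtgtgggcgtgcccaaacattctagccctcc
Mcm3, chr1:20820313-20820462, minus strand: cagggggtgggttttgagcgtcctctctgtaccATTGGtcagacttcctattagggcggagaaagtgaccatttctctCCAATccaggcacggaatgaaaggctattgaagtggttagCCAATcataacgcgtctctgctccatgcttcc
Mcm5, chr8:75109359-75109508, plus strand: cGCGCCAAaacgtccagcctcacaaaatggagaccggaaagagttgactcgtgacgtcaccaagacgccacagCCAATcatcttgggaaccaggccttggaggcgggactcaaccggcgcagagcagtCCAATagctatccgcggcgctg
Mcm6, chr1:128359706-128359855, minus strand: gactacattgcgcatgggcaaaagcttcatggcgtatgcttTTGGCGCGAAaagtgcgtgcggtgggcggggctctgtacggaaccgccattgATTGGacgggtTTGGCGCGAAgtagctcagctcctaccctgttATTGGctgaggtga
Rfc5, chr5:117389024-117389173, minus strand: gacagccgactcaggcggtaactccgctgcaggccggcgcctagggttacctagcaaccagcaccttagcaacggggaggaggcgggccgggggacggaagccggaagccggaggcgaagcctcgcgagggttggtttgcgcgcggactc
Pcna, chr2:132253181-132253330, minus strand: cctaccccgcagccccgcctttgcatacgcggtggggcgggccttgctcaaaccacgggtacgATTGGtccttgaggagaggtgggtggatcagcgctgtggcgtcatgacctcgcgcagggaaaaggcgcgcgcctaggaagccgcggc
Orc5, chr5:22550339-22550488, minus strand: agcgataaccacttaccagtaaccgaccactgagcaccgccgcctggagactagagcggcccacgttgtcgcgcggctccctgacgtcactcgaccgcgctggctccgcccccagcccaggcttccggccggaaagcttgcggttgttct
The Mcm6 stretch held 4 E2F matches in 2 overlapping pairs and 2 CCAAT boxes, the Mcm3 stretch 3 CCAAT boxes, and the Mcm5 stretch 1 E2F match and 2 CCAAT boxes. The Pcna stretch held 1 CCAAT box, the Mcm2 stretch 1 CHR element, and those of Rfc5 and Orc5 none of the letters. The full windows, which the shares above and the comparison below use, also held an E2F match for Mcm3 and a CCAAT box for Mcm2. Having the E2F letters did not go with a larger difference between genotypes: the median log2 difference was -0.41 for the 27 genes with a match and -0.46 for the 14 without.

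Most replication genes had lower mRNA levels in the cKO libraries, but none passed the test across all genes. Both cKO values lay below both WT values for 44 of the 50 genes, against 28.7% of the 10562 genes tested. The opposite order was found for no member, against 27.2% of genes tested. The 6 genes whose genotypes overlapped were Orc4, Orc5, Pcna, Rpa3, Fen1 and Tipin. The cKO mean was 73.2% of the WT mean at the median over the 50 genes and ran from 58.4% for Mcm2 to 104% for Orc4. The difference of log2(FPKM + 1) was negative for 48 genes, against 50.6% of all genes tested, and its median was -0.41, against -0.00. In bulk RNA, a smaller share of cells in S phase and less of these mRNAs per cell cannot be told apart.

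The test was limma on log2(FPKM + 1), adjusted over the 10562 genes whose mean reached 1 FPKM, a filter that all 50 genes passed. It called 0 of the 50 genes at an adjusted p under 0.05, where 1.07% of all genes were called, 0.256% as lower and 0.814% as higher. At an unadjusted p under 0.05, 37 of the 50 were lower, against 10.3% of all genes (19.8% in either direction), and none was higher. The lowest adjusted p was 0.0607, for Mcm2 and Rfc5. For 1 gene alone, 2 libraries against 2 allow no two-sided exact permutation p below 0.333. Differences in the following are given as log2(FPKM + 1) of cKO minus WT with the SE of the limma fit, a scale on which weakly expressed genes show less than their full change.

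**Figure D1:**
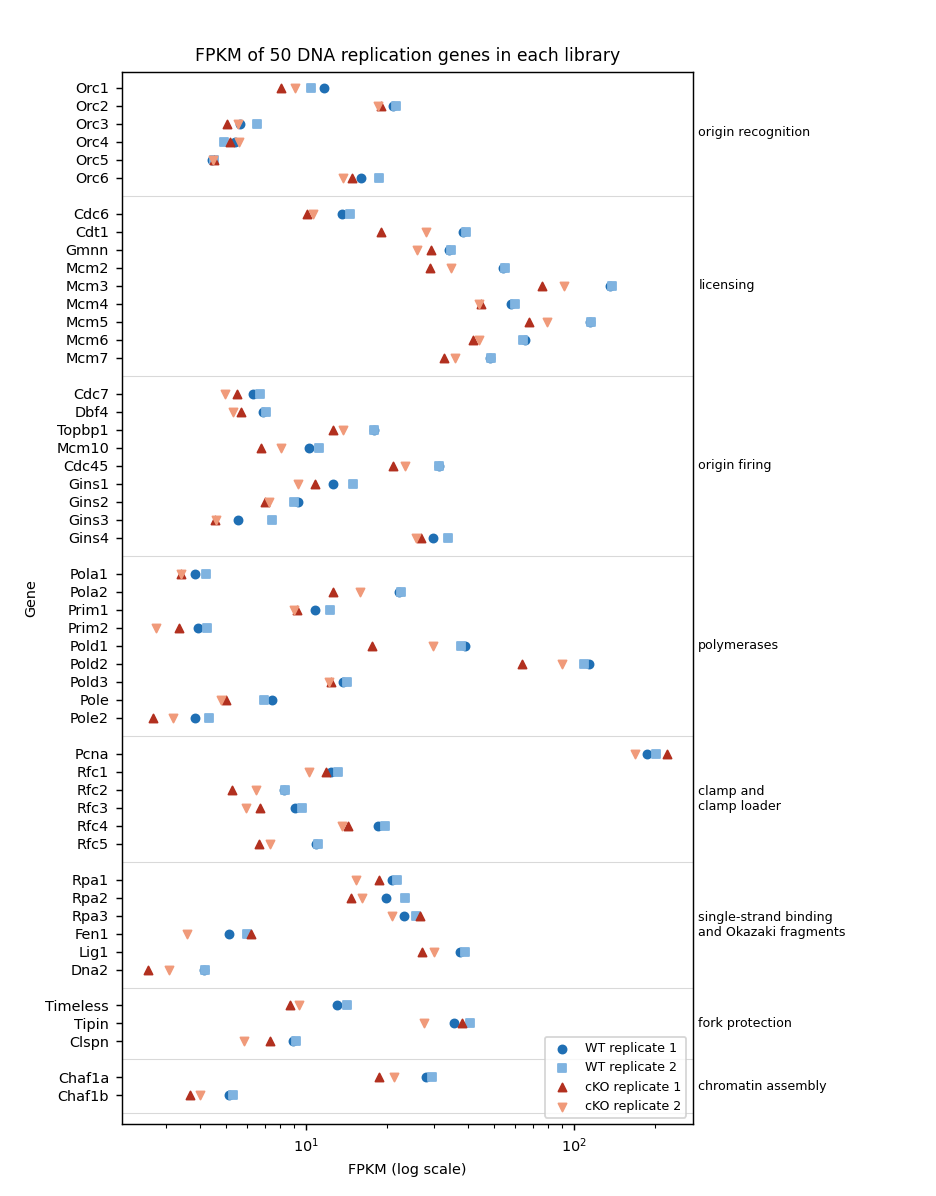
FPKM (x axis, log scale) of the 50 replication genes (y axis, grouped by step) in each of the 2 WT and 2 cKO libraries, 1 symbol per library. Both cKO symbols lie left of both WT symbols for 44 genes, and the genotypes overlap for Orc4, Orc5, Pcna, Rpa3, Fen1 and Tipin.

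**Figure D2:**
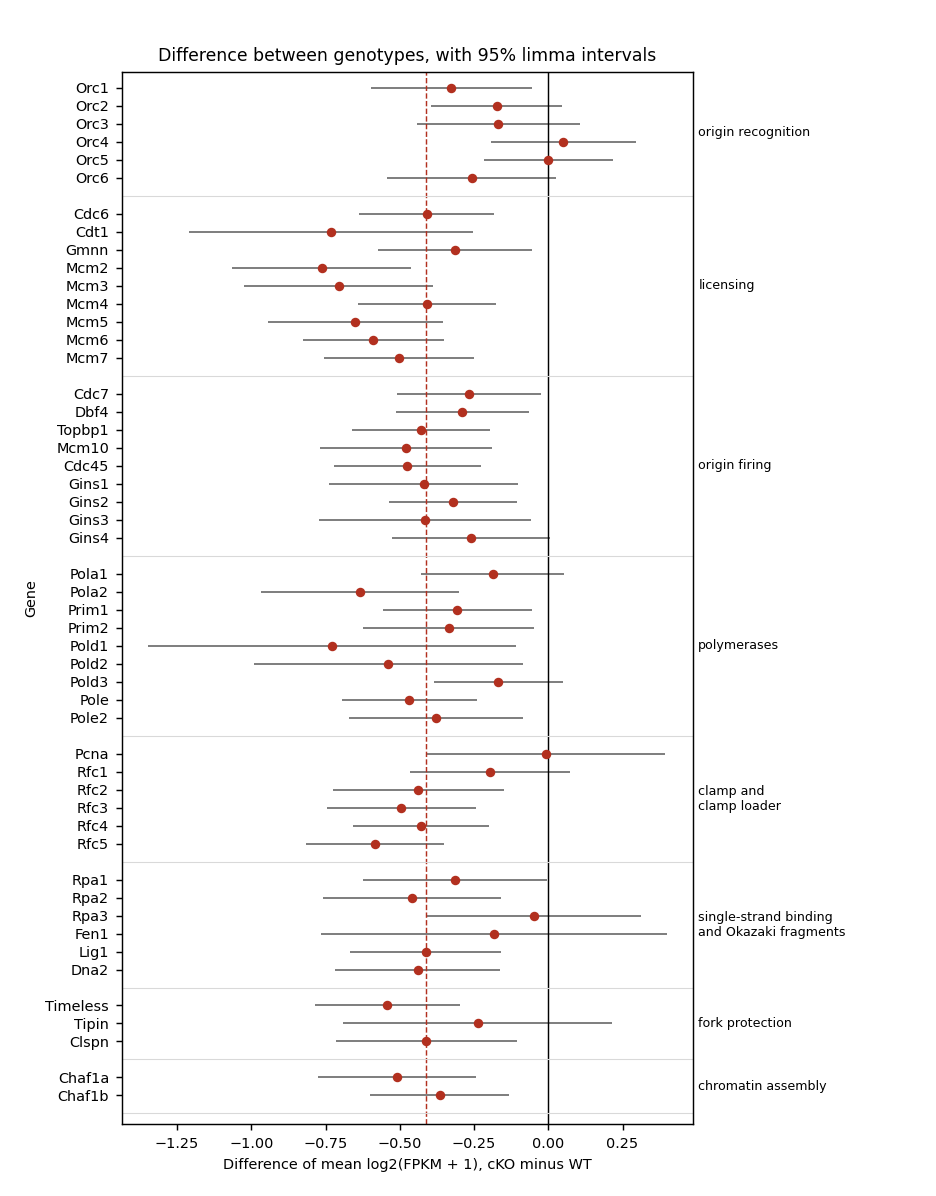
Difference of mean log2(FPKM + 1), cKO minus WT (x axis), for each of the 50 genes (y axis, grouped by step), with bars for the 95% interval of the limma fit, 2 libraries per genotype. The dashed line marks the median of -0.41, and the points run from -0.76 for Mcm2 to 0.05 for Orc4.

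Licensing genes had the most negative median difference of the steps with 3 or more genes, -0.59 over 9 genes. Both cKO values lay below both WT values for all 9, against 28.7% of all genes tested. Mcm2, on chromosome 6 (88883474 to 88898780), encodes a subunit of the helicase ring that CDC7 phosphorylates, and had 54.4 and 55 FPKM in WT and 29.1 and 34.8 in cKO. The 2 WT values nearly coincided and both cKO values lay well below them, a difference of -0.76 ± 0.12 (adjusted p = 0.0607). Mcm3, the most abundant subunit, had 136 and 138 FPKM in WT and 76.1 and 91.7 in cKO (-0.71 ± 0.12, adjusted p = 0.0721). Mcm5 had 115 and 116 FPKM in WT and 67.6 and 79.1 in cKO (-0.65 ± 0.12, adjusted p = 0.0723). In these 3 genes cKO replicate 1 was the lower of the cKO libraries. Mcm6 had 65.7 and 64.5 FPKM in WT against 41.8 and 44.1 in cKO (-0.59 ± 0.09, adjusted p = 0.0612). Mcm7 had 48.7 and 49.1 FPKM in WT and 32.6 and 35.9 in cKO (-0.50 ± 0.10, adjusted p = 0.0811). With the exons of all its GENCODE M21 transcripts joined, Mcm7 overlaps Mir25 and Mir93 on the same strand. Mcm4 had 58.3 and 60.3 FPKM in WT and 44.8 and 44.1 in cKO, the smallest difference of the ring (-0.41 ± 0.09, adjusted p = 0.102). The summed level of the 6 ring genes was 478 and 483 FPKM in WT and 292 and 330 in cKO.

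Of the loading factors, Cdt1 came close to Mcm2 in its difference, and Cdc6 to Mcm4. Cdc6, an ATPase that recruits the ring, had 13.6 and 14.5 FPKM in WT and 10.1 and 10.6 in cKO (-0.41 ± 0.09, adjusted p = 0.0979). Cdt1, its partner in loading, was chosen after its values were seen and had 38.3 and 39.5 FPKM in WT and 19 and 27.9 in cKO (-0.73 ± 0.19, adjusted p = 0.127). The cKO libraries were further apart for Cdt1 than for any ring gene, with replicate 1 minus replicate 2 at -0.53 on the log2 scale. The Cdt1 transcript had 57.8% GC. With each library corrected for its trend with GC content, the difference was -0.63 for Cdt1 and -0.74 for Mcm2. Gmnn encodes geminin, the inhibitor of CDT1 that blocks a second loading. It had 34.0 and 34.7 FPKM in WT and 29.1 and 25.9 in cKO (-0.31 ± 0.10, adjusted p = 0.19), so that both the loader and its inhibitor were lower in both cKO libraries.

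The origin recognition complex stood closest to WT, with a median difference of -0.17 over 6 genes. Orc1, the subunit whose protein level follows the cell cycle, had 11.6 and 10.4 FPKM in WT and 8.04 and 9.10 in cKO (-0.33 ± 0.11, adjusted p = 0.19). Orc6 had 15.9 and 18.6 FPKM in WT and 14.8 and 13.7 in cKO (-0.26 ± 0.11, adjusted p = 0.288). Orc2 had 21 and 21.6 FPKM in WT and 19 and 18.5 in cKO (-0.17 ± 0.09, adjusted p = 0.337), and 29.8% of its exon bases in GENCODE M21 are shared with Nif3l1 on the other strand. In these 3 genes the genotypes did not overlap, though the gap for Orc6 was smaller than the distance between its WT libraries. Orc3 had the same order (-0.17 ± 0.11, adjusted p = 0.426). Orc5 had 4.46 and 4.52 FPKM in WT and 4.50 and 4.48 in cKO, a difference of 0.00 with a 95% interval from -0.22 to 0.22. Orc4 had 5.42 and 4.93 FPKM in WT and 5.18 and 5.61 in cKO (0.05, 95% interval -0.19 to 0.30). The signs of Orc4 and Orc5 turned negative after correction for GC content (-0.07 and -0.10).

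Genes of origin firing had a median of -0.41 over 9 genes. All 9 were lower in both cKO libraries, an order found for 28.7% of all genes tested. Cdc45, which joins the ring as a part of the active helicase, had 31.3 and 31.2 FPKM in WT and 21.1 and 23.3 in cKO (-0.48 ± 0.10, adjusted p = 0.0874). Topbp1, a scaffold for assembling that helicase and an activator of the ATR kinase, had 18 FPKM in both WT libraries and 12.5 and 13.7 in cKO (-0.43 ± 0.09, adjusted p = 0.0932). Mcm10, needed for the helicase to start unwinding, had 10.2 and 11.1 FPKM in WT and 6.74 and 8.04 in cKO (-0.48 ± 0.11, adjusted p = 0.112). For each of these 3 genes the distance between genotypes exceeded that within either genotype. The 4 GINS genes ranged from -0.26 to -0.42. Gins4 was the member of this step with the highest adjusted p, with 29.7 and 33.8 FPKM in WT and 26.9 and 25.8 in cKO (-0.26 ± 0.10, adjusted p = 0.263). Gins2 shares 67.3% of its exon bases with Gse1 on the other strand, so its value (-0.32 ± 0.08) is uncertain. The kinase gene Cdc7 and its activator Dbf4 had differences of -0.27 ± 0.10 and -0.29 ± 0.09 (adjusted p = 0.221 and 0.168).

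Among the polymerases all 9 genes were lower in both cKO libraries (28.7% of all genes tested), with a median of -0.38. Pole, the catalytic subunit of the leading-strand polymerase epsilon, had 7.41 and 6.94 FPKM in WT and 5.03 and 4.78 in cKO (-0.47 ± 0.09, adjusted p = 0.0784). Pola2, the regulatory subunit of polymerase alpha, had 22.3 and 22.6 FPKM in WT and 12.5 and 15.9 in cKO (-0.63 ± 0.13, adjusted p = 0.0885). Pole2, the second subunit of polymerase epsilon, had 3.83 and 4.34 FPKM in WT and 2.67 and 3.17 in cKO (-0.38 ± 0.12, adjusted p = 0.17). The values differed within complexes: Pola1, the catalytic partner of Pola2, stood at -0.19 ± 0.09 (adjusted p = 0.338), and the primase genes Prim1 and Prim2 at -0.31 and -0.34. Pold3, an accessory subunit of polymerase delta, had 13.7 and 14.2 FPKM in WT and 12.4 and 12.2 in cKO (-0.17 ± 0.09, adjusted p = 0.341).

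Pold1 and Pold2, subunits of polymerase delta chosen after their values were seen, had cKO libraries far apart, and Pold1 had the widest gap between them of the 50 genes. Pold1, the catalytic subunit, had 39.3 and 37.9 FPKM in WT and 17.5 and 29.7 in cKO (-0.73 ± 0.24, adjusted p = 0.199). Pold2 had 113 and 108 FPKM in WT and 64.1 and 90 in cKO (-0.54 ± 0.18, adjusted p = 0.195). Their transcripts were the most GC-rich of the 50, at 61.0% and 58.7%. With each library corrected for its trend with GC content the differences were -0.58 and -0.42.

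The clamp gene overlapped between genotypes, and the genes of its loader did not. Pcna, which encodes the sliding clamp, was the most abundant of the 50 genes and had 188 and 202 FPKM in WT and 222 and 169 in cKO. The cKO libraries lay on either side of WT, with a difference of -0.01 and a 95% interval from -0.41 to 0.39. It was 0.19 without cKO replicate 2 and -0.20 without cKO replicate 1. All 5 genes of the RFC loader were lower in both cKO libraries (28.7% of all genes tested). Rfc5, on chromosome 5 (117378103 to 117389047), had 10.8 and 11.1 FPKM in WT and 6.65 and 7.32 in cKO (-0.58 ± 0.09, adjusted p = 0.0607). Rfc3 had 9.06 and 9.60 FPKM in WT and 6.73 and 5.94 in cKO (-0.49 ± 0.10, adjusted p = 0.0818). Rfc4 had 18.6 and 19.6 FPKM in WT and 14.3 and 13.6 in cKO (-0.43 ± 0.09, adjusted p = 0.0914). Rfc2 was close to these (-0.44 ± 0.11). Rfc1, the large subunit, had 12.4 and 13.1 FPKM in WT and 11.8 and 10.2 in cKO (-0.20 ± 0.11, adjusted p = 0.361), and its difference was -0.10 without cKO replicate 2 and -0.29 without cKO replicate 1. Whether Pcna differed from the loader genes was not tested.

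Genes of single-strand binding and of Okazaki fragment processing had a median of -0.36 over 6 genes. Lig1, the ligase that seals Okazaki fragments, had 37.4 and 39.1 FPKM in WT and 27.1 and 29.9 in cKO (-0.41 ± 0.10, adjusted p = 0.114). Dna2, a nuclease and helicase that trims flaps, had 4.14 and 4.19 FPKM in WT and 2.55 and 3.08 in cKO (-0.44 ± 0.11, adjusted p = 0.121). Rpa2, a subunit of the single-strand binding protein RPA, had 19.8 and 23.3 FPKM in WT and 14.6 and 16.2 in cKO (-0.46 ± 0.12, adjusted p = 0.127). In all 3 genes the genotypes were apart. Rpa1, the large RPA subunit, had 20.8 and 21.8 FPKM in WT and 18.7 and 15.3 in cKO (-0.31 ± 0.12, adjusted p = 0.248). The genotypes were apart there too, at -0.18 without cKO replicate 2 and -0.45 without cKO replicate 1. Rpa3, the smallest RPA subunit and the most AT-rich transcript of the 50 (34.2% GC), had 23.2 and 25.8 FPKM in WT and 26.6 and 21 in cKO (-0.05, 95% interval -0.41 to 0.31). Fen1, the flap nuclease, had 5.13 and 6.01 FPKM in WT and 6.24 and 3.60 in cKO (-0.18, 95% interval -0.77 to 0.40). Of its exon bases 78.8% are shared with Gm10143 on the other strand, and the strand setting of the counting is not given in the sources used here.

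Of the fork protection genes, which keep the polymerase and helicase coupled and signal stalled forks, Timeless had 13.0 and 14.2 FPKM in WT and 8.67 and 9.36 in cKO (-0.54 ± 0.10, adjusted p = 0.0723). Clspn, the mediator of the CHK1 kinase, had 8.90 and 9.15 FPKM in WT and 7.29 and 5.85 in cKO (-0.41 ± 0.12, adjusted p = 0.159). Tipin, the partner of TIMELESS, had 35.7 and 41.0 FPKM in WT and 38.0 and 27.4 in cKO (-0.24 ± 0.18, adjusted p = 0.481). Its 2 cKO libraries disagreed, and 1 of them lay between the WT values. Of the chromatin assembly genes, which place histones on new DNA, Chaf1a had 28.0 and 29.5 FPKM in WT and 18.7 and 21.2 in cKO (-0.51 ± 0.10, adjusted p = 0.0874). Chaf1b had 5.12 and 5.33 FPKM in WT and 3.67 and 3.99 in cKO (-0.37 ± 0.09, adjusted p = 0.124). Chaf1a shares 52.5% of its exon bases in GENCODE M21 with Ubxn6 on the other strand. That release gives it 8854 exon bases, but the deposited gene length was 3308. The share therefore does not describe the gene model that was counted.

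Set side by side, the steps kept their sign in each cKO library. Against the WT mean, the median over the 50 genes was -0.41 in cKO replicate 1 and -0.37 in cKO replicate 2, with the WT libraries at -0.03 and 0.03. The licensing genes stood at -0.63 and -0.47 in cKO replicates 1 and 2, the 6 ring genes at -0.69 and -0.54, and the origin recognition genes at -0.18 and -0.15. Firing genes stood at -0.34 and -0.37, polymerases at -0.44 and -0.32, and the clamp and its loader at -0.41 and -0.39. These medians describe the genes listed and carry no test between steps.

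**Figure D3:**
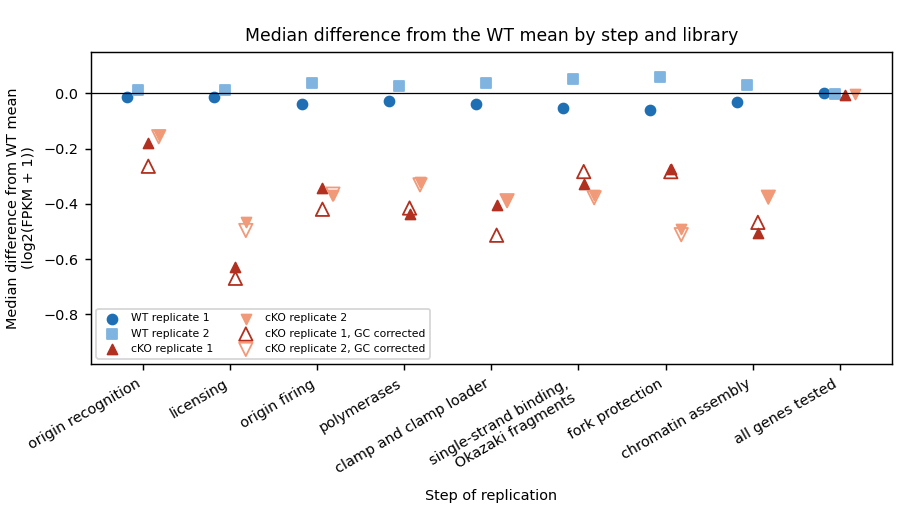
Median difference of log2(FPKM + 1) from the WT mean (y axis) by step of replication and for all genes tested (x axis), in each of the 4 libraries, with open symbols for the cKO libraries after correction for GC content. Licensing lies at -0.63 and -0.47 in the cKO libraries and origin recognition at -0.18 and -0.15, while the WT libraries stay between -0.06 and 0.06.

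Transcript GC content moved with the size of the difference. Over the 50 genes, Spearman's rho of the genotype difference with GC content was -0.64, and it was -0.64 for cKO replicate 1 against WT and -0.40 for cKO replicate 2. Over all genes tested the values for the 2 libraries were -0.38 and 0.03. The genes share the same libraries, so these are descriptions without a test. The difference was also more negative for more abundant genes (rho = -0.36 with mean FPKM) and bore little relation to gene length (rho = -0.04). Part of the relation with abundance may be built into the scale, on which weakly expressed genes show less than their full change. With each library corrected for its trend with GC content, the median of the 50 genes was -0.42, at -0.43 in cKO replicate 1 and -0.39 in cKO replicate 2. Both cKO values then lay below both WT values for 47 of the 50 genes, against 31.2% of all genes. The median GC content of the 50 transcripts was 48.6%, and that of all genes tested 49.6%.

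**Figure D4:**
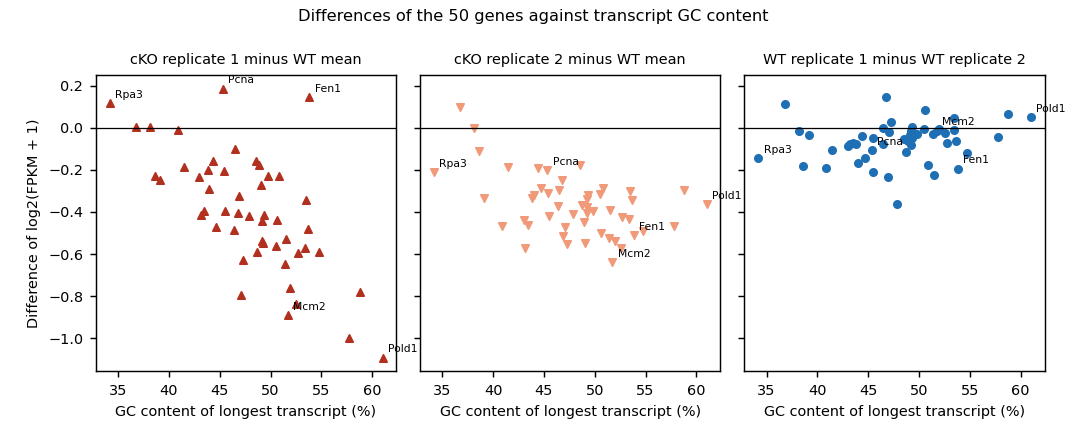
Difference of log2(FPKM + 1) (y axis) against GC content of the longest transcript in percent (x axis) for the 50 genes, for each cKO library minus the WT mean and between the WT libraries. Pold1, at 61.0% GC, lies at -1.09 in cKO replicate 1 and -0.36 in cKO replicate 2, and 45 and 49 of the 50 genes lie below 0 in cKO replicates 1 and 2.

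The calls depended on the analysis, while 45 of the 50 genes were lower in each of the 15 alternatives in which they were tested. Several of these could not turn a sign. Changing the filter, adding the replicate block, keeping protein-coding genes only and the robust variance leave each difference as it was. The block with GC correction repeats the differences of GC correction. The same count over all genes was not made. The voom method of limma, run on read numbers worked back from FPKM, called 19 of the 50 as lower (3.33% of all genes), among them all 6 ring genes. The fit after GC correction called 13 (2.32%), again with all 6 ring genes, and the fit on protein-coding genes only called 11 (2.61%), with 5 of them. None of these fits called a member as higher. Mcm2, Mcm3, Mcm5, Mcm6, Mcm7, Pole, Rfc3, Rfc5, Timeless and Chaf1a were called in all 3, with adjusted p of 0.0146, 0.0325 and 0.0264 for Mcm2. Without cKO replicate 1, 4 genes were called, namely Mcm2, Mcm3, Mcm5 and Mcm6 (1.08% of all genes), and without cKO replicate 2 there were 28 (15.3%). Leaving out WT replicate 1 (0.0947% of all genes) or WT replicate 2 (0.0568%) gave no call, as did a replicate block (0.691%).

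**Figure D5:**
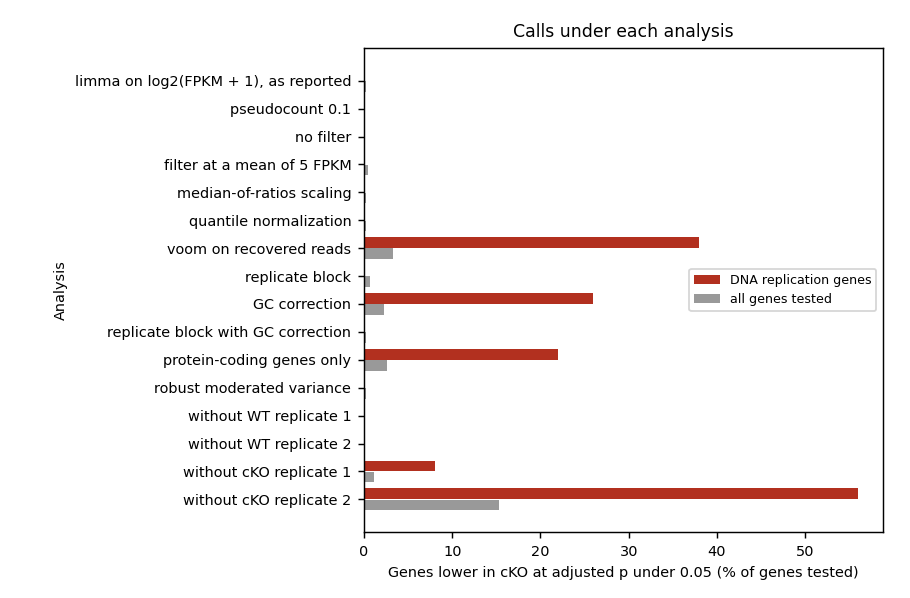
Share of genes called lower in cKO at an adjusted p under 0.05 (x axis, percent of genes tested) under each analysis (y axis), for the 50 replication genes and for all genes tested. The share of replication genes is 0 in the analysis as reported and above that of all genes with voom (19 of 50), GC correction (13), protein-coding genes only (11) and without either cKO replicate (4 and 28).

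Related genes outside the 50 had mostly the same direction. Of 30 other replication genes none passed the test and the median was -0.25. The difference was negative for 24 of the 30, against 50.6% of all genes tested. The lowest p-values were those of Top2a, the topoisomerase that untangles sister DNA (51.4 and 54.9 FPKM in WT, 36.8 and 36.4 in cKO, adjusted p = 0.0723), and Chtf18, a subunit of an alternative clamp loader (6.90 and 6.27 against 2.91 and 3.96, adjusted p = 0.073). Of 14 genes of nucleotide supply none passed, with a median of -0.32 and the thymidine kinase gene Tk1 first (10.8 and 12.0 FPKM in WT, 6.61 and 6.75 in cKO, adjusted p = 0.0504), followed by Umps of pyrimidine synthesis (adjusted p = 0.086). Of 18 mitotic genes none passed, and the median was -0.59, with Ccnb1 (adjusted p = 0.0504) and Aurka (0.053) first. All 18 were lower in both cKO libraries, against 28.7% of all genes tested.

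Of 21 regulators of the G1/S transition 2 were called lower and 1 higher, against 0.256% and 0.814% of all genes tested. The difference was negative for 16 of them and positive for 5, with a median of -0.23. Mybl2, a transcription factor gene of S and G2 phase, had 35.2 FPKM in both WT libraries and 15.8 and 18.4 in cKO (-1.0 ± 0.11, adjusted p = 0.0367). Ccna2, the S phase cyclin, had 46.3 and 48.4 FPKM in WT and 26.9 in both cKO libraries (-0.79 ± 0.09, adjusted p = 0.0391). It shares 12.5% of its exon bases with Exosc9. Cdkn1a, which encodes the cyclin kinase inhibitor p21, a protein that also binds PCNA, had 52.5 and 44.7 FPKM in WT and 155 and 138 in cKO (1.57 ± 0.13, adjusted p = 0.0242). Leaving out either WT library ended the calls of Mybl2 and Ccna2 (adjusted p from 0.118 to 0.292), and leaving out WT replicate 2 ended that of Cdkn1a (0.0697).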

How the data were processed

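The authors deposited FPKM per gene for 4 libraries. The submitters' processing notes list featureCounts (1.5.0-p3) as a tool, and GRCm38 and mm10 as genome builds. For the aligner, the annotation release and the strand setting the entry is: not given in the sources used here. FPKM was multiplied by the gene length in the same table and by 1 total per library, inferred from the steps between low values. Every value above 0 then came within 0.01 read of a whole number. The recovered reads were 96.9% to 101% of the inferred totals and sum to 19347055 and 18517487 for WT and to 20387948 and 19521977 for cKO.

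limma 3.58.1 in R 4.3.3 was run on log2(FPKM + 1) where the mean over the 4 libraries reached 1 FPKM, with a variance trend, no block, Benjamini-Hochberg adjustment and two-sided p. GC content came from the longest GENCODE M21 transcript, and a loess fit (span 0.5) per library removed its trend in one alternative. The 50 genes, the other lists and the rule for named genes (3 lowest p, the highest p and opposite signs per step, all ring genes) were chosen with earlier results of these data known.

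Replicate numbers were not taken as pairs, because the labels give no shared origin. The differences between replicates 1 and 2 of the 2 genotypes correlated at -0.093 across genes. That value was taken without GC correction, and the cKO difference followed GC content (rho = -0.529) more than the WT difference did (0.121). It therefore cannot settle whether the replicates are pairs.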

Additional observations from a re-analysis of the deposited data

How the results depend on the processing

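The median over the replication genes was -0.45 with a pseudocount of 0.1 and -0.49 with voom, and -0.43 to -0.36 with 1 library left out. With voom, GC correction and protein-coding genes only, 19, 13 and 11 of the 50 genes were called instead of 0, and 0 to 28 with 1 library left out. Over all genes the 113 calls became 618 with voom, 503 with GC correction, 500 with protein-coding genes only, 227 with a replicate block, 0 without a filter on low values (none of 21807 genes), and 55 to 3004 with 1 library left out; higher calls were 76.1% of all in the fit as reported and 43.0%, 51.3% and 51.8% in the first 3 of these, and the causes were not tested. With the replicate block, and with block and GC correction together, none of the 50 genes was called. None was called either with a pseudocount of 0.1 (0.142% of all genes called lower) or without a filter (0%). The same held for a filter at a mean of 5 FPKM, which 44 of the 50 passed (0.476%). Nor was any called with median-of-ratios scaling, quantile normalization or a robust moderated variance (0.256%, 0.199% and 0.218%). Signs turned for 5 genes. Orc4 was at -0.066 with GC correction, with or without the block, and from -0.0059 to 0.11 with 1 library left out. Orc5 was at -0.038 with voom, at -0.10 with GC correction, with or without the block, and from -0.0084 to 0.0088 with 1 library left out. With 1 library left out Pcna ran from -0.20 to 0.19, Rpa3 from -0.21 to 0.12 and Fen1 from -0.51 to 0.14, with the highest values without cKO replicate 2 and the lowest without cKO replicate 1. In fits without 1 library the lone library of a genotype is assumed to vary like the other pair. The count of genes whose genotypes did not overlap, with alternatives chosen after seeing the data, was 47 of 50 with GC correction. With 1 library left out it ran from 44 to 48, but 3 libraries overlap less by construction, and the share over all genes was then 35.8% to 44.4%. The lowest read number behind a value of the 50 genes was 156, which limits the precision of the least expressed.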

Other observations

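The 50 genes lay on 16 chromosomes, with 9 on chromosome 5, which held 6.30% of all genes tested and 18% of the 50, and 6 on chromosome 8 (5.47% and 12%). Of the 2 Pcna pseudogenes in the table, Pcna-ps2 had 3.33 and 3.62 FPKM in WT and 3.64 and 2.46 in cKO, the same order of libraries as Pcna within cKO, from 60 to 93 reads per library.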
